A study of Mus musculus with 16 samples.

Results

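The regions private to spleen were a set of 16236 accessible chromatin regions of the fed mouse spleen. They were selected by 3 conditions on the deposited peak lists: a q value under 0.01 in the fed spleen, an overlap of at least 1 bp with a region at that threshold in the fasting spleen, and no overlap with a deposited peak of any of the 14 lists of the other 7 tissues. They made up 14.9% of the 109332 spleen regions found in both states, and the 16 lists together held 2640607 regions with q under 0.01. The values of both spleen lists and the absence of peaks elsewhere chose the members, so ranks, tag numbers and absence from other tissues are given below as a description, with no test.

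Open chromatin had been profiled with ATAC-seq, in which the Tn5 transposase cuts accessible DNA, in brown adipose, white adipose, heart, kidney, liver, lung, muscle and spleen. The fed group was male C57BL/6 mice with free access to food, and the fasting group was mice of the same strain and sex that had no food for 24 h; the animals were 12 weeks old when acquired. Tissue from 3 mice was pooled for each library, and each tissue and state had 1 library, so neither the states nor the tissues were replicated. With 1 value a tissue, spleen against the other 7 could reach an exact one-sided p no lower than 0.125, and no test was made.

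The spleen filters blood and hosts immune responses. Its white pulp holds B cells around follicles and T cells around arterioles, and its red pulp holds macrophages that recycle iron from aged red cells, plasma cells and, in mice, sites of blood formation. Distal enhancers differ far more between cell types than promoters do, and in blood cells many of them carry sites for PU.1 and other ETS factors, interferon regulatory factors (IRF), RUNX, EBF1, E2A and, in B cells, the octamer factor OCT2. A bulk spleen library mixes these cell types, so the number of cells of a type and the openness per cell cannot be told apart.

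The sequences of 8 members are shown because they hold the letters that the motif comparison below counts, or because they rank highest. Each is the reference sequence (GRCm38, plus strand, 5′ to 3′) within 100 bp of the summit, the same window that was searched. Capitals mark matches on either strand to 5 motifs: PU.1 (GAGGAAGT), an ETS-IRF composite (GAANNGAAA), the octamer (ATTTGCAT), RUNX (TGTGGTT) and EBF (TCCCNNGGG). The names are those of the protein-coding gene with the nearest start. Igfbp7 and Suco mark the members with the highest mean rank, and the other 6 are strongest members of genes on the blood cell lists that hold such a match.
Igfbp7, chr5:77443970-77444170: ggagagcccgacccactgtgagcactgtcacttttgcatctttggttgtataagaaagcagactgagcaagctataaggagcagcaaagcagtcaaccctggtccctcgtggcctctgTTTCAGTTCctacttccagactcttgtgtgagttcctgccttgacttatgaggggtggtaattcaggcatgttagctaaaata
Suco, chr1:161900204-161900404: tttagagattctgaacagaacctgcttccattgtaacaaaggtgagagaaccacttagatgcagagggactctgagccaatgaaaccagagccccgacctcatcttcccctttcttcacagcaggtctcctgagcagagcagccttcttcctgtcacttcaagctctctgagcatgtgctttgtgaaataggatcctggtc
Bank1, chr3:136433318-136433518: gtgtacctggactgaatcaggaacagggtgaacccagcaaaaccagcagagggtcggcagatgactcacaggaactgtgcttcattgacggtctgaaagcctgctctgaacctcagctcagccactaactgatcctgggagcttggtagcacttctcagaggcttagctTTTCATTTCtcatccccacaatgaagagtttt
Myb, chr10:21112790-21112990: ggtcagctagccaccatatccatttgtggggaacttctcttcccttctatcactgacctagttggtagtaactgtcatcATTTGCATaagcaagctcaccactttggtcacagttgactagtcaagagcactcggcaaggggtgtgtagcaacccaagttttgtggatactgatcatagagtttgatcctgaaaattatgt
Lmo2, chr2:103919558-103919758: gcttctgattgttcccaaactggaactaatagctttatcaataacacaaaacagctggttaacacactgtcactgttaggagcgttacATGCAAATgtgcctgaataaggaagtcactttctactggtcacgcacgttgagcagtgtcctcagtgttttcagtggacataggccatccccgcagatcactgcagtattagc
Spib, chr7:44529671-44529871: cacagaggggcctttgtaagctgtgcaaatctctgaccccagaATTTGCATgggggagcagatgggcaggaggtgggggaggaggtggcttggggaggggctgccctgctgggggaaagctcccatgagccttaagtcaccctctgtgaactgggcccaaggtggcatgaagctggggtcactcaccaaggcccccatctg
Cd6, chr19:10790333-10790533: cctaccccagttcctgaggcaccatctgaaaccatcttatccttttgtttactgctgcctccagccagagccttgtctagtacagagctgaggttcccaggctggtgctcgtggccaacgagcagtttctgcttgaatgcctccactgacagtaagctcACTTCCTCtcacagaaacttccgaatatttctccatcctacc
Gzmb, chr14:56293270-56293470: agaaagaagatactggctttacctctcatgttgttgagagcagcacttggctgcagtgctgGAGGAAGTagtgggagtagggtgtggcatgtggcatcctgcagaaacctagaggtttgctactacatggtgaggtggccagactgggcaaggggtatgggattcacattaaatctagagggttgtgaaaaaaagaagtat

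The member upstream of Igfbp7 held a composite match with its centre 22 bp from the summit, and the member near Suco held none of the 5 motifs. The members given to Myb and Lmo2, regulators of blood progenitors, each held an octamer, centred 17 and 8 bp before the summit in plus-strand coordinates. The member given to Bank1 held a composite match 73 bp after it. The member inside Spib, the gene of an ETS factor of B cells, held an octamer 53 bp before the summit. The members given to Cd6 (a T cell surface receptor) and Gzmb (the cytotoxic protease granzyme B) each held a PU.1 match. Of the 75 strongest members of called genes on the 10 blood cell lists, 22 held at least 1 of the 5 motifs in this window. Over all members the share was 22.9%, and over those with a mean rank over 80 it was 40.6%. These 75 were picked as the strongest of each gene, so the count is no result about blood cell genes. A match is a description of the letters, not evidence that a factor was bound.

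The members were weak peaks. MACS2, the peak caller, compares the tags at a summit with an expected number, and from the deposited fold and p values whole summit tags could be recovered for 99.95% of fed and 99.97% of fasting spleen rows. The expected number at the genome background was 3.2 tags in the fed spleen and 3.35 in the fasting spleen, against 2.8 to 12.77 over all 16 libraries. The median member had 16 tags in the fed library (quartiles 14 and 21) and 17 in the fasting library (quartiles 14 and 23). Spleen regions that another tissue also had reached medians of 29 and 30 tags. The median width was 126 bp for members and 232 bp for the other spleen regions. A single summit was listed for 89.9% of members and for 64.6% of the others.

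Ranks are percentiles by p within a list, with 100 the strongest. The median member ranked 51.9 in the fed list and 52.2 in the fasting list, against 78.7 and 79.7 for the spleen regions shared with another tissue. A mean rank of 80 or higher was reached by 1154 members (7.11%) and by 45.4% of the other spleen regions. The strongest member in the fed list stood at 95.8, and the strongest fasting partner at 99.97. The limits of the rule cut through a dense part of the list: the weakest members had a −log10 q of 2.0015 in the fed list, and the strongest region outside by this limit alone, of 1970 such regions, had 1.9997. The weakest fasting partner had 2.0434, which was the lowest value of the whole fasting list. Another tissue had a peak fewer than 10 bp away, without overlap, for 130 members, and 140 spleen regions stood outside through an overlap of fewer than 10 bp.

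**Figure D1:**
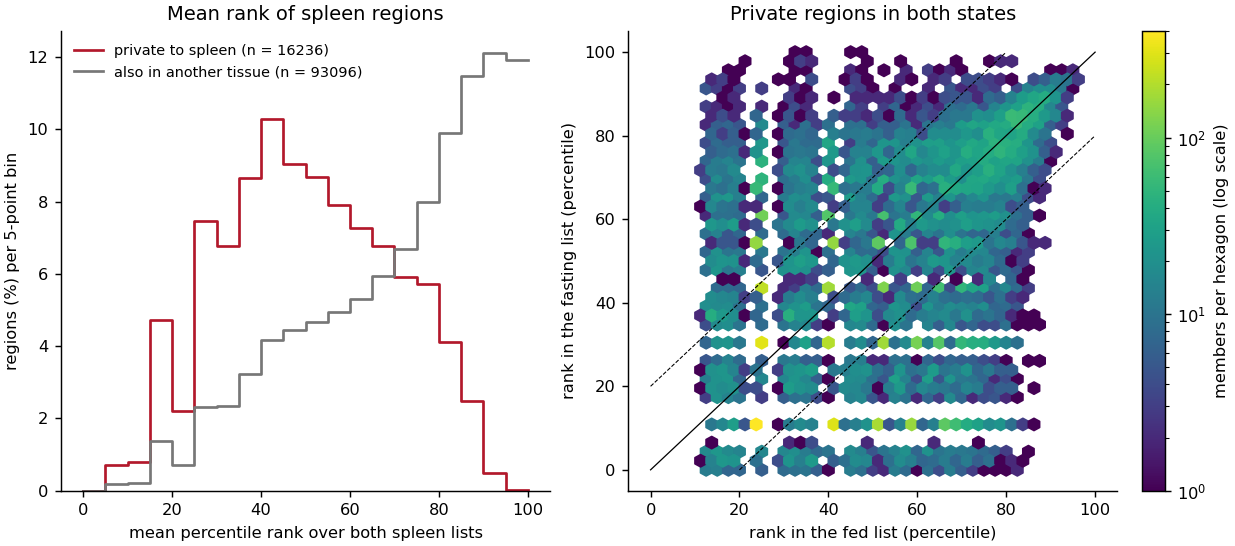
Left, the share of spleen regions per 5-point bin of mean percentile rank over the fed and fasting lists, for the 16236 regions private to spleen and the 93096 also found in another tissue. Right, the rank of each private region in the fed list against its rank in the fasting list, as hexagons coloured by the number of regions on a log scale; dashed lines mark a difference of 20 points, and the bands at low ranks are whole tag numbers.

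Peaks of other tissues were often close. Within 500 bp, 44.4% of members had a peak of another tissue, and within 5000 bp 94.5% did. Only 897 members lay more than 5000 bp from every other tissue's peak. Among members with a mean rank over 80 the share with such a peak within 500 bp was 35.4%, and in the lower bands it was 44.1% to 45.8%. Many members thus lay close to chromatin that was also open in another tissue.

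The member with the highest mean rank, 95.9, lay at chr5:77443835-77444340, in an intron of the non-coding gene Gm34728 and 36029 bp upstream of Igfbp7, which encodes a secreted protein of endothelium. It had 83 summit tags in the fed library and 91 in the fasting library. The member at chr1:161900211-161900431, in an intron of the non-coding gene Gm31925, had 76 and 72 tags. Both ranked above 95 in both lists, and the nearest peak of another tissue was 116 bp and 1034 bp away. The member at chr15:78170747-78171111, in an intron of Ift27, a small GTPase of ciliary transport, had 128 and 107 tags, the highest fed tag number of any member.

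Next came members near genes of the germ line and of taste. These were chr2:51436692-51436871 in a non-coding gene 190714 bp from Tas2r134, a bitter taste receptor, with 71 and 55 tags, and chr17:15546483-15546905 in an intron of Prdm9, a meiotic histone methyltransferase, with 69 and 56 tags. A member 18516 bp from Pou5f2, a germ cell transcription factor, at chr13:78043279-78043571, had 65 and 55 tags and lay in an intron of Fam172a. Nearest starts do not name a regulated gene. For the member near Tas2r134, 41.3% of the window was soft-masked repeat, and for that near Igfbp7 43.3%. For those at Prdm9, Suco, Ift27 and Prg3 none of it was.

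A further 3 of the 10 strongest lay within 13311 bp of a coding start. The member at chr2:167954892-167955292, in an intron of Ptpn1, a phosphatase that dampens insulin and cytokine signals, had 90 tags fed and 124 fasting. The member at chr2:84988074-84988414 lay 7 bp from the start of Prg3, which encodes an eosinophil granule protein, with 62 and 65 tags. The last, at chr2:27129060-27129299 in an intron of Fam163b, had 73 and 69 tags. The ranks of these 3 differed by at most 3.64 points between the states.

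The members were distal. Only 21.9% of them (95% exact binomial interval 21.3 to 22.5) had a summit within 3000 bp of an annotated start, against 41.2% (40.9 to 41.6) of the spleen regions shared with another tissue. Such intervals cover counting error only. The difference came from the promoter itself: 9.35% of members and 29.6% of the others lay within 1000 bp of a start, while 12.5% and 11.7% lay between 1000 and 3000 bp. The median distance was 9765 bp for members and 5192 bp for the others, and to a protein-coding start it was 18982 bp and 8921 bp. More than 50000 bp from any start lay 9.01% of members and 4.32% of the others.

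**Figure D2:**
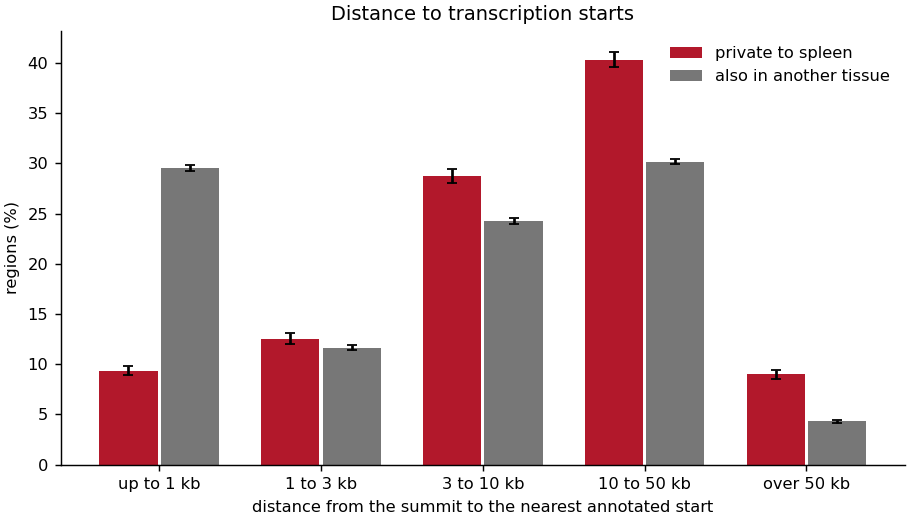
Share of spleen regions by distance from the summit to the nearest annotated start, for regions private to spleen and regions also found in another tissue; bars start at 0 and error bars are 95% exact binomial intervals. Up to 1 kb the private regions held 9.35% and the others 29.6%, and from 3 kb outward the private regions held the larger share in every bin.

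Introns held 52.7% of member summits and 38.9% lay between genes, against 49.7% and 34.2% of the shared spleen regions. Untranslated exons held 2.25% of members and 7.88% of the shared regions. Coding exons differed little, with 3.36% and 3.68%. Private regions of the other tissues, found by the same rule, lay at similar distances, with medians from 10088 bp in liver to 11595 bp in heart, and spleen had the smallest median of the 8 tissues. Chromosome X held 209 members, or 1.29% of them, and chromosome Y held 2.

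Genes were taken as called when they had the nearest protein-coding start to at least 1 member. This held for 6862 of 21924 genes, or 31.3%, which is the background for every list below. Lymphocyte genes were called more often than that: 13 of 18 B cell genes, 12 of 18 T cell genes, 6 of 11 natural killer (NK) cell genes and 6 of 7 plasma cell genes. Over the 10 blood cell lists 75 of 136 genes were called, or 55.1%. Over 6 lists of other tissues (pancreas, hepatocyte, muscle, adipocyte, lung epithelium and kidney tubule) it was 18 of 76, or 23.7%. Within that pool, kidney tubule stood above the background, with 5 of 13 genes (38.5%). Both pools were formed after the values were seen, and they leave out the stromal and endothelial lists. The lists are short and were compared with the background by counts alone.

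Lung and kidney gave the nearest comparisons, lung because it also holds many blood cells and kidney because its private set was the largest, with 22221 regions against 10397 in lung. Regions private to lung called 22.8% of all genes, 6 of 18 B cell genes, 6 of 18 T cell genes and 0 of 11 NK cell genes, and 10 of 12 lung epithelium genes. Regions private to kidney called 36% of all genes, 6 B cell, 4 T cell and 2 NK cell genes, and 11 of 13 kidney tubule genes. Other blood cell lists stood above the background in these tissues too: regions private to lung called 4 of 7 plasma cell, 6 of 12 progenitor and 5 of 13 megakaryocyte genes, and those private to kidney 7 of 12 progenitor and 8 of 18 erythroid genes. When peaks within 500 bp also excluded a region, the members called 21.5% of all genes, 63 of the 136 blood cell genes and 10 of the 76 genes of other tissues. When lung was left out of the exclusion, they called 36.2% of all genes, 89 of 136 and 21 of 76. The list counts under both changed exclusions were added after the values were seen.

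**Figure D3:**
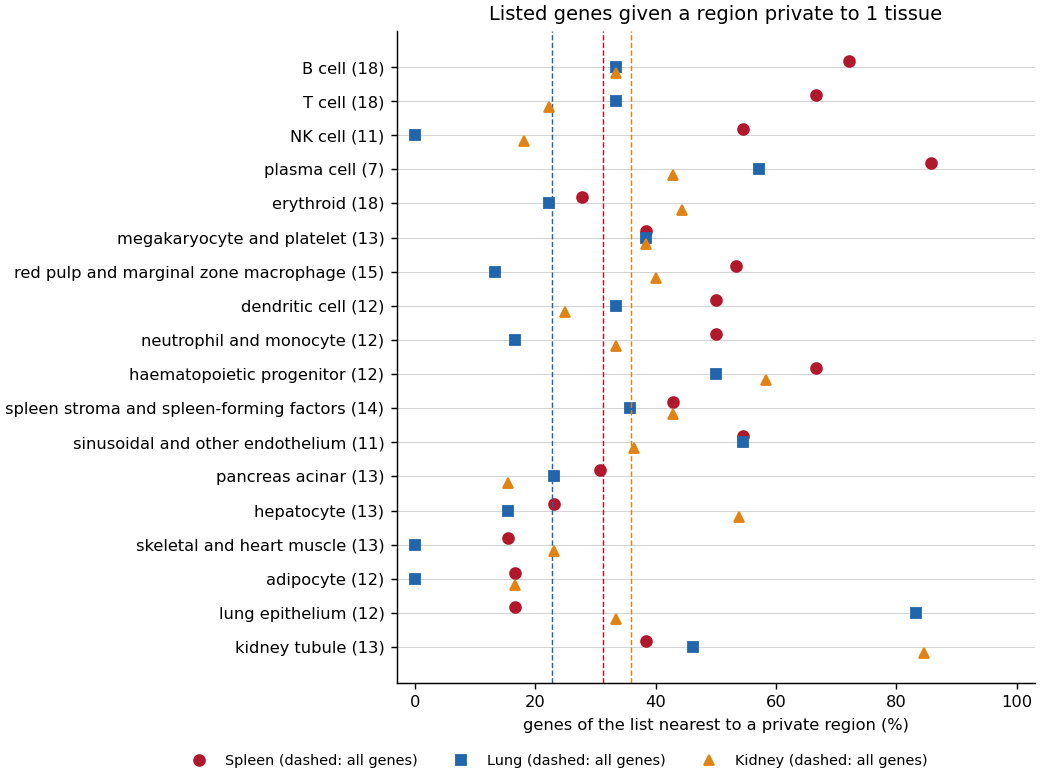
Share of the genes of each list (number of genes in brackets) that had the nearest start to at least 1 region private to spleen, lung or kidney; dashed lines give the share over all protein-coding genes, 31.3%, 22.8% and 36%. Spleen points lie at 72.2% for B cell, 66.7% for T cell and 85.7% for plasma cell genes, and lung and kidney points lie highest for lung epithelium (83.3%) and kidney tubule (84.6%).

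Among B cell genes, the strongest member of Bank1, an adaptor of B cell receptor signalling, lay at chr3:136433198-136433500, 107352 bp upstream of its start, with 34 tags fed and 35 fasting. Ms4a1, which encodes CD20, had a member 5597 bp upstream with 34 and 36 tags. Ebf1, a master regulator of B cell identity, had 20 members out of 85 spleen regions nearest to it. The strongest lay at chr11:45173637-45173820 with 33 and 27 tags. The values of both states lay close together for all 3. Cr2, the complement receptor of mature B cells, had 10 members out of 17 spleen regions nearest to it, with 27 and 34 tags at the strongest. Bach2, a repressor that holds B cells short of the plasma cell stage, had 19 members out of 107, with 25 and 38 tags at the strongest. Cd79a, Fcer2a, Cd37 and Fcrla were among those not called.

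T cell genes had members of lower rank, with a highest mean rank of 78.5 against 87.8 for B cell genes. The strongest was in an intron of Lef1, a transcription factor of naive T cells, at chr3:131134874-131134993, with 24 tags in each state. Lef1 had 11 members out of 44 spleen regions nearest to it. Cd6 had a member in its intron, 2555 bp from the start, with 39 tags fed and 26 fasting. Il7r, the receptor for the survival cytokine interleukin 7, had 8 members out of 19, the strongest with 16 and 24 tags. Bcl11b, a factor of T cell commitment, had 10 out of 26, the strongest with 18 and 21 tags. The T cell receptor subunits Cd3e, Cd3d and Cd3g, the co-receptor Cd4, and Cd5 and Zap70 were not called.

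The called NK cell genes were led by Eomes, a transcription factor of NK cells, with 19 and 22 tags at a member 21560 bp upstream. Gzmb followed with 19 and 22 tags, and Il2rb, a subunit of the interleukin 2 receptor, with 28 and 24. Plasma cell genes were led by Irf4, which drives plasma cell formation, with 35 tags fed and 36 fasting at chr13:30769980-30770112. Prdm1, which encodes the plasma cell regulator BLIMP-1, had 12 members out of 60 spleen regions nearest to it, the strongest with 20 and 32 tags. Sdc1, the plasma cell marker CD138, had 37 and 40 tags at a member 70712 bp from its start.

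Myeloid lists lay between. Of 15 genes of red pulp and marginal zone macrophages 8 were called, of 12 dendritic cell genes 6, and of 12 neutrophil and monocyte genes 6. Csf1r, the receptor that maintains macrophages, had a member in its intron with 48 tags fed and 42 fasting. Marco, a scavenger receptor of marginal zone macrophages, had one at chr1:120501574-120501834 with 30 and 27 tags. Treml4, a receptor of the same family as the TREM proteins, had one 2263 bp upstream with 34 and 30 tags. Hmox1, the haem-degrading enzyme, and Adgre1, which encodes F4/80, had 26 and 32 tags and 32 and 35 tags. Spic, the factor of red pulp macrophages, and the iron exporter Slc40a1 were not called.

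Tcf4, a factor of plasmacytoid dendritic cells, had an intronic member with 64 tags fed and 27 fasting. Irf8, a factor of dendritic cells and monocytes, had 12 members out of 51 spleen regions nearest to it. The strongest had 55 and 70 tags at chr8:120797489-120797580. Flt3, the receptor for a dendritic cell growth factor, had 20 and 39 tags. The fed library was higher at Tcf4 and the fasting library at Flt3. Ccr2, the chemokine receptor of inflammatory monocytes, had 36 and 20 tags.

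Progenitor genes were called in 8 of 12 cases and erythroid genes in 5 of 18, or 27.8%, a share near the background. Myb, Ikzf1 and Lmo2 had 30 and 34, 41 and 45, and 26 and 31 tags at their strongest members. Among erythroid genes, Hbb-bt, a beta globin gene, had the strongest member of any listed gene, at chr7:103812592-103812805 in its coding sequence, with 45 tags fed and 47 fasting, and 4 of the 6 spleen regions nearest to it were members. Reads of Hbb-bt and the near-identical Hbb-bs may have been split between them in alignment, so these values are uncertain. Gata1, Klf1, Alas2, Slc4a1, Tal1 and Nfe2 were among the 13 that were not called.

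Megakaryocyte and platelet genes were called in 5 of 13 cases, led by Vwf, the von Willebrand factor gene, with 34 and 31 tags. Stromal genes and spleen-forming factors were called in 6 of 14 cases, in spleen as in kidney and liver. Their members were weak: Pdpn had 18 and 16 tags, Barx1 17 and 18, Nkx2-3 22 and 19, and Tlx1, the homeobox gene required for spleen formation, 15 and 15. Endothelial genes were called in 6 of 11 cases in spleen, as in lung, liver and muscle. Of the 105 strongest members of called list genes, 41 lay inside the gene itself and 27 within 3000 bp of its start. A call could rest on a member inside a neighbour, on the blood cell lists and on the others: the only member given to Cd79b, a B cell receptor subunit, lay in Scn4a, the member given to Prss2 lay in Trbc2, the member given to Scgb1a1 lay in Ahnak, and the member given to Bhlha15 lay in Lmtk2.

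The spleen label was checked against promoters of the same lists, where a promoter was open with a region of q under 0.01 within 3000 bp of a start. All 18 B cell and all 18 T cell promoters were open in both spleen libraries, as were 10 and 11 of 11 NK cell and 12 of 12 dendritic cell promoters. The 14 other libraries ranged from 8 to 18 for B cell, 7 to 18 for T cell, 1 to 9 for NK cell and 6 to 10 for dendritic cell genes. Hepatocyte promoters were open in 5 of 13 cases in each spleen library, against 2 to 13 elsewhere. Other lists did not set spleen apart. Adipocyte promoters were open in 10 and 12 of 12 cases in spleen, against 7 to 12 elsewhere. Muscle promoters were open in 11 and 9 of 13 cases, against 5 to 11, and kidney tubule promoters in 8 and 10 of 13, against 3 to 13. Erythroid promoters were open in 13 and 14 of 18 cases, against 8 to 14. Pancreas acinar promoters were open in 9 and 11 of 13 cases in spleen, against 5 to 9 elsewhere. Their part in the members was not tested, and 4 of 13 acinar genes were called.

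Members piled up beside a small number of genes. Of 21924 protein-coding genes, 777 had 5 or more members, 157 had 10 or more and 18 had 20 or more. Sox5, the gene of an SRY-related transcription factor, had the most, 31 of its 72 spleen regions, with a median mean rank of 41.8. Bcl11a, a zinc finger factor needed for B cell development, had 29 of 79, and Myc, a growth regulator with distal blood cell enhancers, had 26 of 94. Wwox, an oxidoreductase gene, had 26 of 60, Aff3, a nuclear factor of lymphoid cells, 25 of 72, and Adgrl2, an adhesion receptor, 25 of 94. Lpp, which encodes a focal adhesion protein, had 24 of 121, and Chrm3, a muscarinic receptor, 24 of 45. Ets1, an ETS factor of lymphocytes, had 23 of 101, and Arid1b, which encodes a chromatin remodelling subunit, 23 of 104. Over all spleen regions found in both states the private share was 14.9%. The stretch of sequence nearest to a gene differs widely between genes, and these counts are not corrected for it. The median distance of the members from the start was 94139 bp at Sox5 and 241645 bp at Myc.

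Rpia had 21 of its 69 spleen regions as members, at a median distance of 630157 bp. It borders the immunoglobulin kappa locus, whose gene segments are not annotated as protein-coding. The antigen receptor loci, in which B and T cells join variable segments to make receptors, were therefore counted from the segments themselves; this count was chosen after the values were seen. The kappa locus (chr6:67555497-70726966) held 44 members of 98 spleen regions found in both states, or 44.9%, against 14.9% over all such regions. The heavy chain locus held 19 of 78, lambda 8 of 26, T cell receptor alpha and delta 13 of 66, beta 9 of 26 and gamma 3 of 8. All 6 loci together held 96 of 302, or 31.8%. Segments of these loci resemble each other in sequence, so the counts are uncertain.

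Kappa members were strong, with a median mean rank of 71.8 against 49.7 over all members. Of the 41 members between the outermost variable segments, 28 had a summit within 1000 bp of the start of such a segment, and 9 within 500 bp. The strongest, at chr6:70171646-70171857, lay 521 bp downstream of the start of Igkv8-27, with 52 tags fed and 37 fasting. The member at chr6:68437278-68437596, 26 bp from the start of Igkv15-103, had 37 and 51 tags, and the member 40 bp from the start of Igkv1-110 had 38 and 45. Those of Igkv10-95 and Igkv4-81 had 25 and 48 and 32 and 28 tags. Neither state was higher at all 5.

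With neighbours joined across gaps of up to 12.5 kb, 16.7% of members (16.2 to 17.3) lay in one of 772 clusters of 3 or more. The share was higher for the private regions of muscle (32.1%), kidney (27.5%) and liver (20.9%), and lower for those of lung (15.03%), brown adipose (10.4%), heart (8.69%) and white adipose (3.72%). The sets differed in size, and leaving lung out of the exclusion raised the spleen share to 31.8%. The largest cluster held 9 regions in spleen, 28 in kidney, 40 in liver and 65 in muscle. Among all spleen regions found in both states, which are denser, the share was 78.2%.

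The largest clusters had 9 members each and lay at Immp2l, Swap70, Rasa3 and Pag1. The cluster at chr12:41023253-41062206, with 8 of its members inside Immp2l, held 9 of 15 spleen regions in its span, with 13 to 44 tags fed and 20 to 52 fasting. The cluster at chr7:110180968-110212267 lay between genes upstream of Swap70, which encodes a signalling protein abundant in activated B cells, with 15 to 36 and 15 to 42 tags. All 9 members of the cluster at chr8:13618692-13671893 lay in introns of Rasa3, a Ras GTPase activator of platelets, with 17 to 49 and 18 to 49 tags. Those at chr3:9729959-9775917 lay in introns of Pag1, an adaptor that restrains Src kinases in lymphocytes, where 9 of 12 spleen regions were private and tags ran from 12 to 27 fed and 12 to 28 fasting. The tag ranges of the fed and fasting libraries overlapped in each cluster.

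Clusters of 8 members lay at 5530401A14Rik, Neil3 and Cr2. All 8 spleen regions of the cluster at chr11:81902169-81913470, in introns of Asic2, were private, and no other tissue had a peak within 11049 bp of any of them. The cluster at Cr2 (chr1:195184096-195211517) lay between genes, 7519 to 34653 bp from the nearest coding start, and held 8 of 11 spleen regions, with 13 to 27 tags fed and 13 to 34 fasting. The cluster inside Neil3 had 12 to 17 tags fed and 12 to 28 fasting.

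Short sequence motifs were counted in the windows within 100 bp of the summit, on both strands, beside the 93096 shared spleen regions, the private regions of the other tissues and windows 1000 bp to either side of the member summits. The PU.1 letters stood in 5.72% of member windows (5.37 to 6.09) and in 5.08% of shared spleen windows. Private regions of the other 7 tissues held them in 0.899% to 2.63% of windows, highest in lung, and the flanking windows in 1.35%. In 50 bp bins the share of members was 1.85% just before the summit and 2.002% just after it, and 0.351% and 0.499% in the outermost bins. The E2A letters (CAGGTG) stood in 20.9% of members, 18.6% of shared spleen regions, 14.1% of flanks and 3.94% to 17.2% of the private regions of other tissues. The related letters CAGCTG stood in 15.7% of members, 16.6% of shared spleen regions, 9.38% of flanks and 11.6% to 18.9% of the other private sets. Interferon response letters (GAAANTGAA) stood in 1.52%, 1.59% and 1.80% of members, shared spleen regions and flanks. For MYB letters (AACNGTT) these shares were 2.54%, 2.77% and 3.73%.

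**Figure D4:**
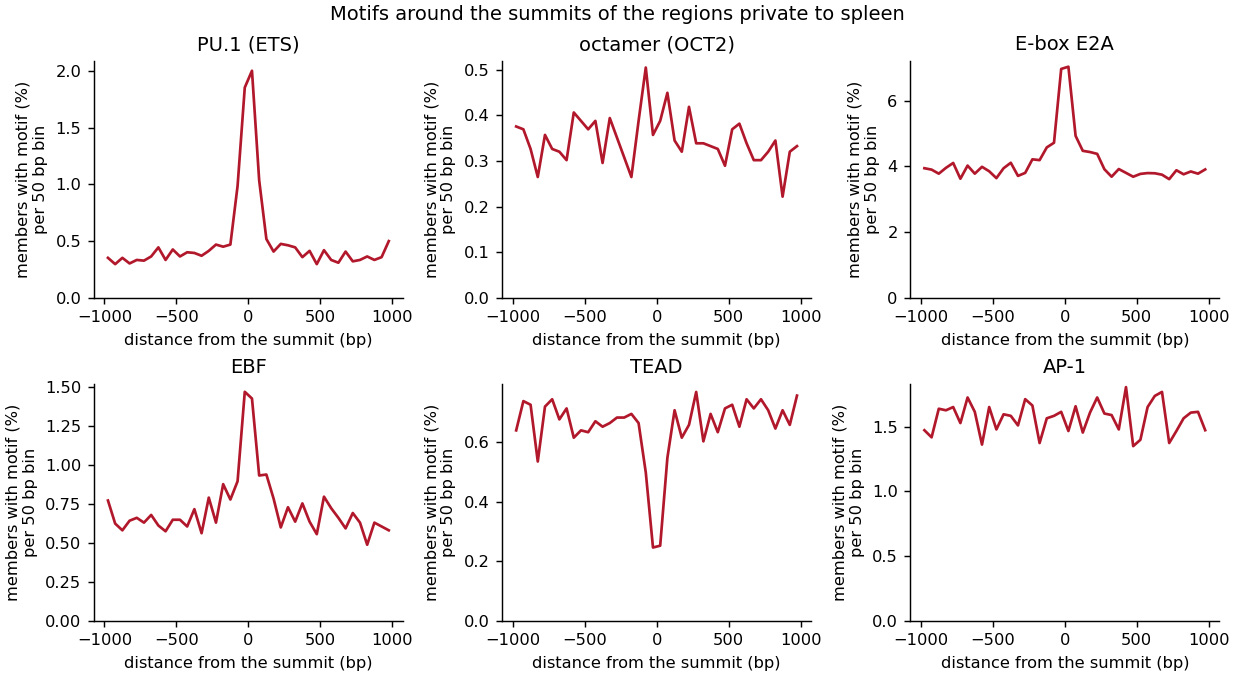
Share of the 16236 regions private to spleen that held each motif with its centre in a 50 bp bin, by distance from the summit in bp, on either strand. PU.1, E2A and EBF are highest beside the summit, where PU.1 reaches 2.002%, TEAD is lowest there at 0.246%, and AP-1 and the octamer show no such peak.

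The EBF letters stood in 4.53% of members, 4.68% of shared spleen regions and 2.45% of flanks, and brown adipose had the highest share of any private set, 12.7%. RUNX stood in 6.57% of members, 6.22% of shared spleen regions, 5.11% of flanks and 3.73% to 5.86% of the other private sets. Letters that mark other tissues were scarce, but not in members alone. Those of HNF4 (CAAAGTCCA) stood in 0.209% of members and 0.223% of shared spleen regions. In the other private sets they ranged from 0.110% in brown adipose to 2.89% in kidney. Those of MEF2 (CTAAAAATA) stood in 0.203% of members and 0.256% of shared spleen regions. In the other private sets they ranged from 0.219% in liver to 3.11% in heart. TEAD letters (GGAATGT) stood in 1.48% of members, 2.76% of flanks and 2.86% to 6.08% of the other private sets. AP-1 letters (TGANTCA) were no more common in members (5.91%) than in flanks (5.98%). The GATA letters (AGATAAG) stood in 2.15% of members and 2.79% of flanks.

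CTCF letters (AGNNGGCGC), which belong to the insulator factor bound in all tissues, stood in 1.10% of members and 6.49% of shared spleen regions. Flanks held them in 0.597% of windows, and the other private sets in 0.471% (heart) to 0.844% (brown adipose). Members were thus low beside shared spleen regions only. Members had a lower GC content than shared spleen regions, 50.9% against 54.5%, and a higher one than the private sets of other tissues, 45.9% to 49.0%, and than their own flanks, 44.5%. The part of base composition in the motif shares was not tested. Repeats covered 15.6% of member bases and 25.4% of the flanks.

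The shares of several motifs were higher in the highest band of mean rank than in the lowest. From the lowest 20-point band of mean rank to the highest, PU.1 went from 3.66% of 1010 members to 12.1% of 1154 members, and from 2.11% to 6.39% of shared regions. The ETS-IRF composite went from 4.46% to 14.4% of members and from 4.34% to 7.33% of shared regions, although over all members its 6.89% was close to the 6.75% of the flanks. The octamer went from 0.594% to 4.42% of members and from 0.542% to 1.58% of shared regions. RUNX went from 5.25% of members to 127 of 1154, and from 5.18% to 6.74% of shared regions, and between ranks 20 and 40 members stood below shared regions, with 4.94% and 5.22%. In the highest band the shares of members were above those of shared regions for these 4 motifs. For EBF the shares were 6.07% and 4.90%, with overlapping intervals. Regions are not replicates, and the intervals cover counting error only. The band was not matched in rank either: members reached a mean rank of 95.9 and shared regions 100. Whether a difference goes with being private was not tested.

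**Figure D5:**
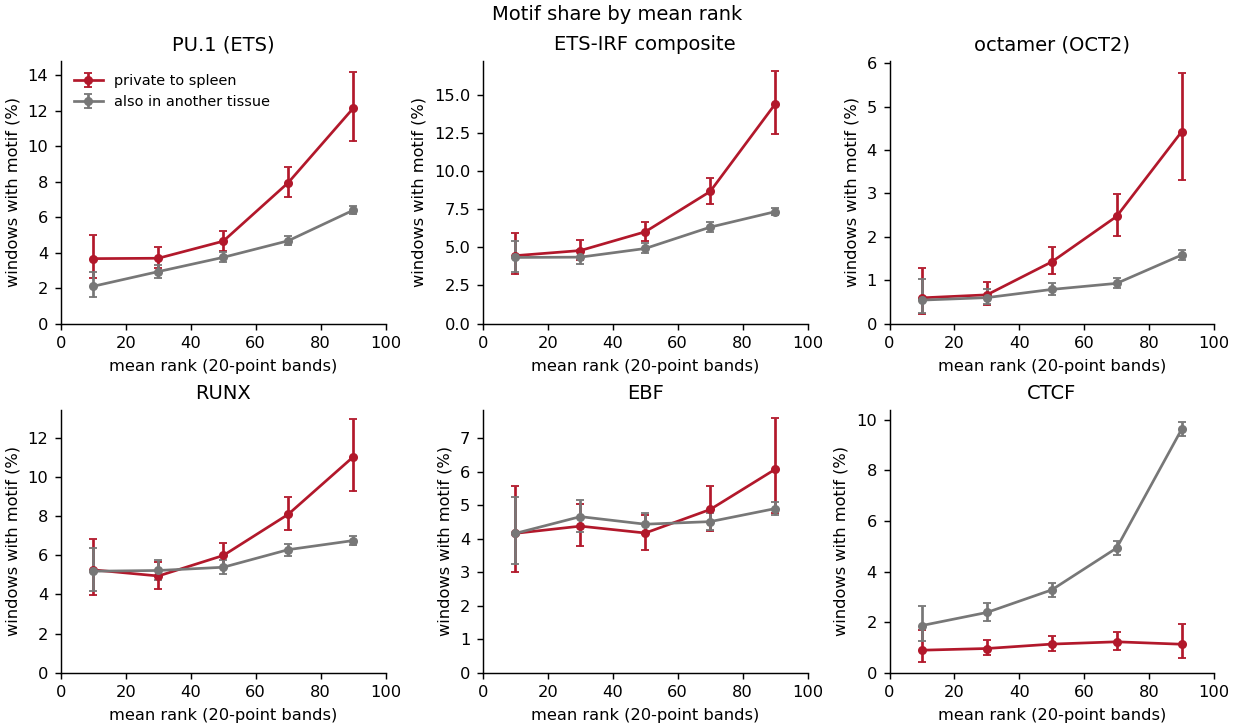
Share of windows with each of 6 motifs by 20-point band of mean rank, for regions private to spleen and spleen regions also found in another tissue; error bars are 95% exact binomial intervals. In the highest band PU.1 stands at 12.1% and 6.39%, the octamer at 4.42% and 1.58%, and CTCF at 1.13% and 9.62%.

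At least 1 of the 5 motifs stood in 22.9% of members, in 21.3% of shared regions and in 40.6% of the members with a mean rank over 80. PU.1 and composite letters, which can share bases, stood together in 88 members. Members with no other tissue's peak within 500 bp held PU.1 letters in 6.89% of windows and the others in 4.26%. CTCF letters stayed near 1% of members in every band, from 0.891% to 1.22%, and rose to 9.62% of shared regions in the highest. GC content fell from 52.1% of member bases in the lowest band to 49.3% in the highest.

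Tag numbers of most members differed little between the fed and fasting libraries. Scaled to the background of each library, the median log2 ratio of fasting over fed summit tags was −0.01, with quartiles at −0.23 and 0.21. A scaled ratio of 2-fold or more higher in fasting was seen in 223 members (1.37%, against 2.41% of all spleen regions found in both states), and one of 2-fold or more lower in 74 (0.456%, against 1.42%). Members had to be listed in both states, and none had fewer than 12 tags in either. A member with the fed median of 16 tags could thus not fall 2-fold, while the other spleen regions had a fed median of 29. The selection therefore limits these shares, and they cannot be compared directly with those of all spleen regions. With 1 library a state the ratios are differences between libraries and have no replicate check.

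Ranks moved more. A rank at least 20 points higher in fasting was found for 18.4% of members, against 12.7% of all spleen regions found in both states, and one at least 20 points lower for 24.5%, against 14.4%. Across members the ranks of both states correlated with r = 0.35 (rho = 0.37), and across the shared regions with r = 0.62 (rho = 0.79); these points share 2 libraries and a selection on both. At the genome background, 1 tag was worth many points: 12, 13 and 14 tags stood at ranks 24.9, 40.6 and 51.9 in the fed list, and at 11.3, 30.2 and 44.4 in the fasting list. Ranks were taken over each whole list, and the q limit removed regions from the fed list only. The lowest member rank was 12.4 in the fed list and 0.0004 in the fasting list. Rises and falls therefore had unequal room, and their shares cannot be compared directly.

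The largest rises were at members whose fasting region was wider. The member 50 bp from the start of Calm4 had 13 tags fed and 55 fasting, that in Ampd3 27 and 89, and that near Msgn1 21 and 149. In these 3 the fed region was 98 to 175 bp wide and the fasting region 648 to 673 bp, with summits 176 to 436 bp apart, and a peak of another tissue overlapped the fasting region. Over all members 6.87% had such a fasting region, and among the 223 with 2-fold higher tags it was 162 (72.6%). Of the 15121 members whose fasting region was private too, 61 were 2-fold higher and 73 were 2-fold lower in fasting. Higher values were thus no more frequent than lower ones among these.

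The largest falls lay inside Atp6v0a4, a proton pump subunit, with 33 tags fed and 17 fasting, inside Pag1 with 25 and 12, and inside Nphp4, a ciliary protein, with 31 and 15. Their summits were 6 to 20 bp apart between states, and no peak of another tissue overlapped their fasting regions. Among members private in both lists, the largest scaled rise was in a coding exon of Il5ra, the interleukin 5 receptor of eosinophils and B-1 cells, with 13 tags fed and 41 fasting at summits 259 bp apart. The largest scaled fall was 451069 bp from Inhba, with 34 and 12 tags at summits 16 bp apart. These 2 were chosen after their values were seen.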

How the data were processed

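ATAC-seq peak lists of 16 mouse libraries were used, 1 per tissue and state. According to its methods section and sample labels, the authors trimmed adapters, aligned reads to GRCm38 with Bowtie2, removed duplicate and mitochondrial reads, shifted ends for Tn5, called peaks with MACS2 and dropped blacklisted regions; tool versions are not given in the sources used here. Fold enrichment, as deposited, is the ratio of summit tags to expected tags, with 1 added to each. The deposited −log10 p and −log10 q values are those MACS2 gave the authors from a Poisson model, and no value is scaled between libraries. Each list was limited in length, and the weakest q differed between libraries.

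Rows with the same coordinates were taken as 1 region with the smallest p. Regions were ranked by p over the whole list, before the limit of q under 0.01 was applied. Coordinates are on GRCm38, counted from 1. Whole summit tags were solved from the deposited fold and p with a tolerance of 0.001 in −log10 p. Starts, exons and genes are from GENCODE vM21 (a promoter is within 3000 bp of a start), and sequence from RefSeq GRCm38.p6. A member was given to the protein-coding gene with the nearest start. In all, 20 motifs and 18 gene lists were used. Regions named were the 10 of highest mean rank, the largest clusters, the 3 largest rank rises and falls and the strongest member of listed genes; genes named were the 10 with the most members and up to 5 called genes per list, with uncalled ones named as such. Sequences came from the strongest of these, leaving out chromosome 18 and windows with UTR bases. The members and lists were chosen with earlier results of these data known. No test was made, since no group had replicates. Intervals are 95% exact binomial and cover counting error only. Python 3.11.15, numpy 2.4.6, pandas 2.3.3, scipy 1.17.1 and pysam 0.24.0 were used. Some items chosen by these rules are not reported here. Overlap, nearest-start, motif and tag steps were tested on simulated data.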

Additional observations from a re-analysis of the deposited data

How the results depend on the processing

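The 7 summaries were recomputed under changed rules, and of 111 values 55 stayed within 1.5 times the count, or within the 95% interval of the share or median, as reported. No paired analysis was possible because each tissue and state had 1 library. With q under 1e-06 in both spleen lists there were 2234 members, with 23.2% near a start, a median distance of 8827.5 bp, 2.10% in clusters, 7.70% of genes called, 11.1% with PU.1 letters and 0.224% with a rank change. Among the 50000 strongest regions of both lists these values were 1034, 24.1%, 8610 bp, 0.290%, 4.04%, 12.9% and 0%; under both limits the low share of rank changes follows from requiring a high rank in both lists and says nothing about stability. When peaks within 500 bp also excluded a region they were 9028, 19.7%, 10763 bp, 10.8%, 21.5%, 6.89% and 41.8%. With an overlap of 50% of both lengths, 9.71% lay in clusters, 25.9% of genes were called, 6.46% held PU.1 letters and 40.3% changed rank. With only peaks of q under 0.01 excluding, 19.6% lay in clusters and 34.2% of genes were called. Leaving each other tissue out of the exclusion gave 16966 to 23529 members, 21.6% to 22.9% near a start, medians of 9411 to 9985 bp, 17.6% to 31.8% in clusters, 32.1% to 36.2% of genes called, 5.43% to 6.65% with PU.1 letters and 37.4% to 43.1% with a rank change; lung gave the extreme on 1 side of every range. A promoter window of 1000 bp gave 9.35% and coding starts alone 14.2%, with a median of 18981.5 bp. Joining within 5000 bp gave 6.01% in clusters, members within 50000 bp called 28.7% of genes, a window of 50 bp gave 3.62% with PU.1 letters, and ranks by fold gave 41.0% with a change. Chosen after seeing the data, 2-fold scaled tags gave 1.83%, and exclusion by peaks within 1000, 2500 or 5000 bp left 5949, 2417 or 897 members. A median of 16 tags limits what a single member can show, and the absence of a peak elsewhere depends on how deep each list reaches: the weakest −log10 q was 5.26 in the fed brown adipose list and 0.649 in its fasting list.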

Other observations

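A small group of members lay at promoters. In all, 508 members (3.13%) had a summit within 500 bp of a protein-coding start, against 20.2% of the shared spleen regions. After the member of Prg3, the strongest were at Strn4 (121 tags fed and 89 fasting, 392 bp from the start), Ccdc186 (58 and 52 tags) and Sp110, an interferon-induced nuclear body protein of blood cells (45 and 51 tags, 24 bp from the start). The member at Oosp1, a gene named for the oocyte, had 41 and 45 tags and no peak of another tissue within 33082 bp. Lpxn, an adhesion protein of blood cells, had 85 and 74 tags, Pik3r4 52 and 63, Crtam, a receptor of activated T and NK cells, 37 and 40, and Plcb2, a phospholipase of blood cells, 46 and 50. No value differed by 2-fold or more between the states. These genes were chosen after their values were seen.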
